A study of Homo sapiens with 6 samples.

Results

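RNA polymerase II was mapped at 10 genes of the circadian clock, PER1, PER2, PER3, CRY1, CRY2, CLOCK, NR1D1, NR1D2, DBP and BHLHE40, in HepG2 cells with and without the tyrosine phosphatase SHP-1. The genes are a named list, and their regions are the rows that the authors assigned to 1 of these symbols. All 10 symbols were found among the 16428 that occur in the 4 region lists, and they hold 116 of the 271336 regions. By antibody and cell type these are 22 of 46045 RPB1 regions in SHP-1 WT, 23 of 41605 in SHP-1 KO, 38 of 102674 pSer2-RPB1 regions in WT and 33 of 81012 in KO.

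HepG2 cells are a hepatoma line of human origin. SHP-1 KO cells were made by CRISPR/Cas9 with guides to exons of the phosphatase domain of PTPN6, the gene of SHP-1, and WT cells are HepG2 carrying the CRISPR control with intact SHP-1. Both are cultures grown from single cells, so a difference between them is also a difference between clones, and the clones cannot be told apart from the genotype. The cells were untreated and not synchronized by any stated treatment, and chromatin was cross-linked with 1% formaldehyde. The hour of the day at harvest was not given in the sources used here.

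ChIP-seq was done with an antibody against RPB1, the largest subunit of RNA polymerase II, and with an antibody against RPB1 phosphorylated on serine 2 of its C-terminal repeats (pSer2), a form that accumulates as the polymerase elongates towards the end of a gene. There is 1 library per antibody and cell type, and 2 inputs that served only as background. Each region has a fold enrichment over input at its summit, which is a ratio, and a −log10 q-value. A rank of 1 is the highest fold enrichment of a list and a percentile of 100 is the top. With 1 library per condition there is no replicate check, and no p-value is given. Read counts were not used, so the depth behind each value is unknown.

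The clock is a loop of transcription. CLOCK and its partner BMAL1 bind E-boxes in the PER, CRY, NR1D1, NR1D2 and DBP genes and activate them, PER and CRY proteins then repress CLOCK and BMAL1, and the nuclear receptors encoded by NR1D1 and NR1D2 (REV-ERB alpha and beta) repress the BMAL1 gene through ROR elements. DBP activates its targets through D-boxes, BHLHE40 (DEC1) represses at E-boxes, and in liver the loop imposes a daily rhythm on genes of glucose and lipid metabolism.

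Sequence windows from 250 bases before to 50 bases after annotated starts (RefSeq, GRCh38.p14) were found for 10 of 10 genes, with a second start for PER3, CRY2, CLOCK and NR1D2. Both strands were searched for the E-box CACGTG, the D-box TTATGTAA or TTACGTAA, the CRE TGACGTCA and the ROR element. An E-box was found at 3 genes (PER1, NR1D2 and BHLHE40), a D-box at 3 (PER2, PER3 and NR1D2), a ROR element at 2 (CLOCK and NR1D2) and a CRE at 0. Among 35116 such windows of the genome 7.26% hold the E-box, 1.01% the D-box, 1.85% the CRE and 0.316% the ROR element. These shares are per window, while the counts above are per gene, and genes with a second start were searched in both windows. All NR1D2 matches and the CLOCK ROR element lay before the second start. The second start of NR1D2 held 2 E-boxes, which 0.664% of windows do. No match overlapped another, and a match is a description of letters, not a bound site.

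As examples, the upstream bases of 3 starts are shown in full. RPB1 regions of both cell types lay over them, as they did over the PER2 and second CLOCK windows shown in part below. These 3 hold the densest or the only matches of their gene. They are chr3:23945871-23946120 (+) before the second NR1D2 start, chr3:4979187-4979436 (+) before BHLHE40 and chr1:7784041-7784290 (+) before the first PER3 start, each 5′ to 3′ with the motif matches in capitals. In NR1D2 the capitals mark, in order, the D-box on the reverse strand, an E-box, the ROR element on the reverse strand and a second E-box. In BHLHE40 they mark the E-box, and in PER3 the D-box.
NR1D2: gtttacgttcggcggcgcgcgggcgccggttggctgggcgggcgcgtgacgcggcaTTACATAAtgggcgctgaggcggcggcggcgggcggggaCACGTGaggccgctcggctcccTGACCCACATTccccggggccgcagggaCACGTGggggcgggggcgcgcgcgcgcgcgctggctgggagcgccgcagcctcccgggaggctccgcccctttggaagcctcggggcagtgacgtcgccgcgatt
BHLHE40: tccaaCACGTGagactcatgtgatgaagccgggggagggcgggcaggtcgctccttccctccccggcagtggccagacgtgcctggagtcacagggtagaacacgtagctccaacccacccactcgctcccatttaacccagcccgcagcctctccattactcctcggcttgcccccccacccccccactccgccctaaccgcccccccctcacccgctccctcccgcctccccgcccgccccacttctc
PER3: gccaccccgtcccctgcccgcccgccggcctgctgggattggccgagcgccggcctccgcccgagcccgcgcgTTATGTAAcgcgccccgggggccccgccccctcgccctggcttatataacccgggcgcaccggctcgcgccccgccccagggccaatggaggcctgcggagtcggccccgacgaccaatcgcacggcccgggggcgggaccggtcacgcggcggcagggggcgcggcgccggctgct

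For the other matches 30 bases are shown, on the strand of the gene. They are the PER1 E-box at chr17:8152560-8152589 (−), the PER2 D-box across the annotated start at chr2:238288595-238288624 (−) and the CLOCK ROR element, on the opposite strand, before the second CLOCK start at chr4:55546130-55546159 (−).
PER1: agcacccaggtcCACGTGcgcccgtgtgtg
PER2: cccgctgcggcTTACGTAAccgccgccggc
CLOCK: ctaggccttgTGACCCACTTTattcctgtc
In WT the summits of RPB1 mostly lay away from these letters, and KO summits were not searched. In the 301 bases centred on the summit of the 14 WT promoter regions of the clock genes the only match of any of the 4 motifs was the PER2 D-box. Of all 20525 WT promoter regions 7.41% hold an E-box and 0.434% a D-box there. The 14 windows are too few to set the absence of an E-box apart from that share.

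RPB1 occupied the promoter of every one of the 10 genes in both cell types. By the authors' assignment 8 genes had a promoter region in WT and 9 in KO, and the rest is a matter of names. The promoter region of NR1D2 was assigned to NKIRAS1, which shares the promoter on the other strand, in both lists, and the WT promoter region of BHLHE40 was assigned to BHLHE40-AS1. When regions were assigned by position, between a point 3 kb before the gene start and the gene end (GENCODE release 44, hg38), all 10 genes had one in both lists. Thus 0 of 8 genes had a WT promoter region and none in KO (8.01% of all genes with a WT promoter region) and 1 of 9, BHLHE40, had the reverse (4.88% of all genes with a KO promoter region), and this 1 comes from the change of assigned name.

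To compare KO with WT, the ratio of the fold enrichments of a gene's strongest promoter region was divided by the median ratio of all 11250 genes with such a region in both lists, which was 0.727 (−0.46 on the log2 scale). On this scaled log2 ratio 0 of 8 clock genes were lower in KO by 1.5 times or more (9.29% of all genes) and 1 of 8, PER1, was higher by as much (10.3% of all genes). The median of the 8 genes was 0.17, against 0 over all genes by construction, and 3 of the 8 lay below 0. Without the division the median of the 8 was −0.29 and 0 of 8 were higher, so the direction of the group and the call at PER1 depend on the scaling. With fold times length summed over the promoter regions 3 of 8, PER1, PER2 and CRY1, were higher. The share of all genes past 1.5 times is not given without the division or for the summed values. Those counts therefore cannot be set against a background. The middle 50% of all genes ran from −0.29 to 0.30.

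**Figure D1:**
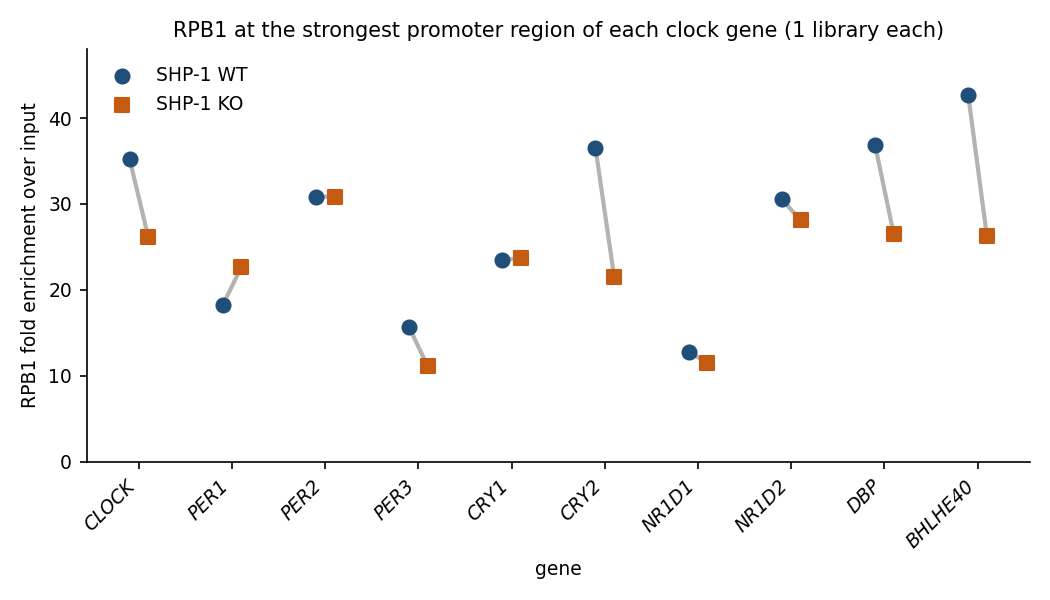
RPB1 fold enrichment over input (vertical axis) at the strongest promoter region of each of the 10 clock genes, assigned by position, with 1 SHP-1 WT library (circles) and 1 SHP-1 KO library (squares) joined by a line. The KO value is above the WT value at PER1, nearly the same at PER2 and CRY1, and below it at the other 7 genes, from 42.7 to 26.3 at BHLHE40 and from 36.5 to 21.5 at CRY2.

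CLOCK, the activator of the loop and a histone acetyltransferase, lies on chromosome 4 (55427903 to 55546909, minus strand). Its RPB1 promoter region had a fold enrichment of 35.3 in WT (chr4:55545633-55547823, rank 4230) and 26.2 in KO (chr4:55545739-55547603, rank 3896). The scaled log2 ratio was 0.03, near the middle of all genes. The KO list held 1 more RPB1 region assigned to CLOCK, 6573 bp upstream of the gene start, with a fold of 4.85.

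PER1, an early repressor gene of the loop, has 2 groups of starts. The annotated gene span on chromosome 17 (8140472 to 8156506, minus strand) begins about 4 kb upstream of the RefSeq start at 8152404. At the upstream start the RPB1 fold was 18.2 in WT (chr17:8155967-8156613, rank 9082) and 22.6 in KO (chr17:8155991-8157474, rank 4992). The scaled log2 ratio was 0.77, at percentile 94.3 of all genes. At the RefSeq start the order was the opposite, with 13.1 in WT (chr17:8151896-8152547, rank 11030) and 5.16 in KO (chr17:8151947-8152533, rank 24343), the summit being at 8152249 in both.

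That contrast was looked at after the values were seen, by setting each WT promoter region beside the strongest KO region overlapping it. Over 15705 such WT regions the median ratio was 0.780, and the PER1 region at the RefSeq start had a scaled log2 ratio of −0.99, at percentile 2.37 of the regions. Of the 13 clock gene regions with a KO partner it was the only one lower by 1.5 times or more (10.7% of all such regions). The 2 that were higher by as much (15.3% of all such regions) both lay at the upstream PER1 start and share 1 KO region. A WT intron region between the starts with a fold of 6.88 had no KO partner, and 4 further KO regions without a WT partner had folds from 3.27 to 5.50, 2 of them just downstream of the gene. Upstream regions with folds of 5.36 in WT and 4.13 in KO reach towards VAMP2, and a read-through transcript of the same strand overlaps the first 5691 bp of PER1, so polymerase of PER1 and of that transcript cannot be told apart there.

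PER2, the second repressor of the family, lies on chromosome 2 (238244044 to 238290102, minus strand). Its main RPB1 region had a fold of 30.8 in WT (chr2:238288110-238289459, rank 5263) and 30.9 in KO (chr2:238287782-238289356, rank 2721). As most genes had a lower fold in KO, the nearly equal fold gives a scaled log2 ratio of 0.46. The D-box across the start shown above lies inside this region. A minor WT region 146 bp from the gene start with a fold of 4.73 had no KO partner.

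PER3 lies on the short arm of chromosome 1 (7784291 to 7845177, plus strand), and the fold at its promoter was the lowest of the 10 genes in KO and the lowest but for NR1D1 in WT. It was 15.7 in WT (chr1:7783167-7784701, rank 10004) and 11.1 in KO (chr1:7783189-7784594, rank 10359). The scaled log2 ratio was −0.04. The WT summit lay 676 bp upstream of the gene start and the KO summit 5 bp downstream of it, within regions that otherwise cover the same stretch. A WT region 2603 bp upstream with a fold of 4.71 had no KO partner.

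The cryptochromes CRY1 and CRY2 encode the partners of the PER proteins in repression, and each had 1 RPB1 region in each list. At CRY1 (chromosome 12, 106991364 to 107093549, minus strand) the fold was 23.5 in WT (rank 7351) and 23.7 in KO (rank 4621), a scaled log2 ratio of 0.47. At CRY2 (chromosome 11, 45847118 to 45883248, plus strand) it was 36.5 in WT (rank 3951) and 21.5 in KO (rank 5430), a scaled log2 ratio of −0.30, the lowest of the clock genes under either assignment. The latter did not reach 1.5 times unless the division by the median was left out. CRY1 thus ranked higher in the KO list and CRY2 in the WT list.

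At NR1D1 (chromosome 17, 40092793 to 40100589, minus strand) 1 broad WT region of 2186 bp with a fold of 12.8 (chr17:40098836-40101021, rank 11175) was matched by 3 separate KO regions with folds of 11.5, 3.51 and 6.14 from the start inward. The strongest gives a scaled log2 ratio of 0.30. NR1D1 also had a KO region in exon 5 with a fold of 4.82 and a WT region 7719 bp upstream with a fold of 4.78, each without a partner. At NR1D2 (chromosome 3, 23945286 to 23980617, plus strand) the region shared with NKIRAS1 covers the motif stretch shown above, with a fold of 30.6 in WT (chr3:23944787-23946677, rank 5319) and 28.1 in KO (chr3:23944893-23946687, rank 3344). Assigned by position, its scaled log2 ratio was 0.35, and the polymerase of the 2 genes cannot be told apart.

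DBP, an output gene encoding a PAR bZIP activator, lies on chromosome 19 (48630030 to 48637379, minus strand). Its strongest RPB1 region lay inside the gene, with the summit 1935 bp from the gene start in WT and 1920 bp in KO. The fold was 36.9 in WT (chr19:48634398-48636611, rank 3869, the highest rank of the regions assigned to a clock gene in that list) and 26.5 in KO (chr19:48634529-48636417, rank 3792). The scaled log2 ratio was −0.02. The regions over the annotated start had lower folds, 10.1 in WT with the summit 787 bp upstream and 5.47 in KO with the summit 42 bp upstream. Their scaled log2 ratio was −0.52 in the comparison of single regions, which here sets summits at different places side by side. A KO region over the WT summit, assigned to SEC1P, had a fold of 4.10. Over the gene end, which overlaps the end of SPHK2 by 688 bp on the other strand, a region assigned to SPHK2 had a fold of 16.9 in WT and 10.6 in KO. In KO 2 more regions in DBP exons had folds of 5.30, within the span of that WT region, and 4.22, with no WT partner.

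BHLHE40, the stress- and hormone-responsive repressor DEC1, is a short gene on chromosome 3 (4979437 to 4985323, plus strand). Its promoter region had the highest RPB1 fold of the 10 genes in WT, 42.7 (chr3:4977501-4980912, rank 2755), and a fold of 26.3 in KO (chr3:4977548-4979871, rank 3872). Assigned by position the scaled log2 ratio was −0.23, and the region is shared with BHLHE40-AS1, which overlaps the first 978 bp of the gene on the other strand. The regions differed more in extent than in summit height. RPB1 regions covered 2808 bp of the gene in WT and 435 bp in KO. The WT promoter region reached further into the gene. In addition, 3 weaker WT regions, with folds of 5.51, 4.88 and 3.14, lay along exon 4 and the last exon without a KO partner. The last of these had a −log10 q-value of only 1.90. The RPB1 covered length of all genes was not compared, so this difference has no background beside it. Past the gene end a WT region with a fold of 5.64 had no partner, one 7.65 kb from the start had 7.86 in WT and 5.62 in KO, and one about 47 kb away had 6.69 in WT only.

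Of the 22 WT RPB1 regions assigned to the clock genes 13 were overlapped by a KO region, 59.1% (exact 95% interval 36.4 to 79.3, Clopper-Pearson, counting error only), against 61.9% of all WT RPB1 regions. From the KO side 16 of 23 were overlapped, 69.6%, against 74.9% of all KO RPB1 regions. The strongest promoter region of each gene was shared in every case, and those without a partner had folds of at most 6.88.

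The pSer2 mark was less uniform over the genes. By the authors' assignment 8 of the 10 had pSer2 regions, the same 8 in both lists, so 0 of 8 were in WT only (14.7% of all genes with a WT region) and 0 of 8 in KO only (4.92% of all genes with a KO region). CRY1 had no pSer2 region in either list by name or by position, which says that no region passed the peak calling and not that the mark was absent. Regions at the end of CRY2 were assigned to MAPK8IP1. For the strongest pSer2 region of a gene the median KO to WT ratio over 10870 genes was 0.936, and on the scaled ratio 1 of 8 clock genes, BHLHE40, was lower by 1.5 times or more (8.35% of all genes) and 1 of 8, PER2, was higher (8.44% of all genes). The median of the 8 was 0.14.

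**Figure D2:**
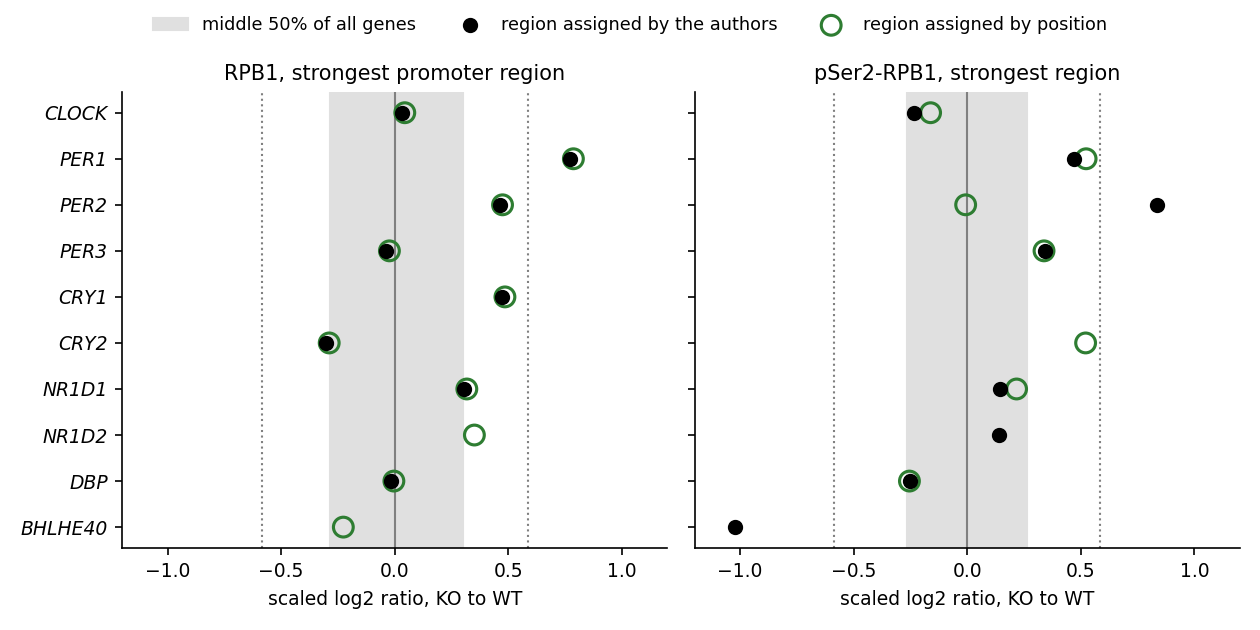
Scaled log2 ratio of KO to WT (horizontal axes) for RPB1 at the strongest promoter region (left) and for pSer2 at the strongest region (right), with the authors' assignment as dots and assignment by position as open circles. The grey band is the middle 50% of all genes and the dotted lines mark 1.5 times: by the authors' assignment PER1 lies past them for RPB1 (0.77), and PER2 (0.83) and BHLHE40 (−1.02) for pSer2, of which PER2 falls to −0.01 and BHLHE40 has no value by position.

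BHLHE40 stood farthest from the other genes. Its strongest pSer2 region, across the gene end, had a fold of 7.11 in WT (chr3:4984955-4986285, rank 5591), and inside it lay a KO region of 254 bp with a fold of 3.28 (chr3:4985533-4985786, rank 58560). The scaled log2 ratio was −1.02, at percentile 1.5 of all genes. A further 4 WT regions, with folds of 4.79 at the promoter, 4.13 in exon 4, 3.05 in intron 4 and 2.78 in the last exon, had no KO partner. Within the gene pSer2 regions covered 2255 bp in WT, 38.3% of its length, and 0 bp in KO. Of the 7 clock genes with pSer2 inside the gene in WT, BHLHE40 was the only 1 with none in KO (13.1% of all such genes). Because the KO region lies past the gene end, the assignment by position gives no ratio for this gene.

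PER2 showed the opposite order in extent. By the authors' assignment its strongest pSer2 region had a fold of 3.77 in WT (rank 49356) and 6.29 in KO (rank 6924), and the KO region, in the later part of the gene at chr2:238253600-238254550, had no WT partner. Regions nearer the gene end, up to position 238251789, were assigned to HES6, and with these the strongest was 7.37 in WT (chr2:238249787-238250978) and 6.88 in KO (chr2:238248964-238251789), a scaled log2 ratio of −0.01. The higher fold in KO thus held only under the authors' assignment. Assigned by position, 9 WT regions covered 3760 bp of the gene, 8.16% of its length, and 14 KO regions covered 10432 bp, 22.6%. A non-coding RNA on the other strand overlaps the last 11590 bp of PER2, and ChIP-seq has no strand to separate them.

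The covered length was compared after the values were seen. Over 9558 genes with pSer2 inside the gene in both lists the median KO to WT ratio of covered length was 0.832. On the scaled ratio PER2 was the 1 of 6 clock genes that was longer in KO by 1.5 times or more (12.1% of all genes), at percentile 98.1, and CRY2 was the 1 of 6 that was shorter (24.2% of all genes), with 874 bp in WT and 433 bp in KO. The fold at CRY2 had the opposite order. Assigned by position, its strongest pSer2 region had 3.81 in WT and 5.14 in KO, a scaled log2 ratio of 0.52. Covered length sums separately called regions, and moves with how many were called in each list.

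**Figure D3:**
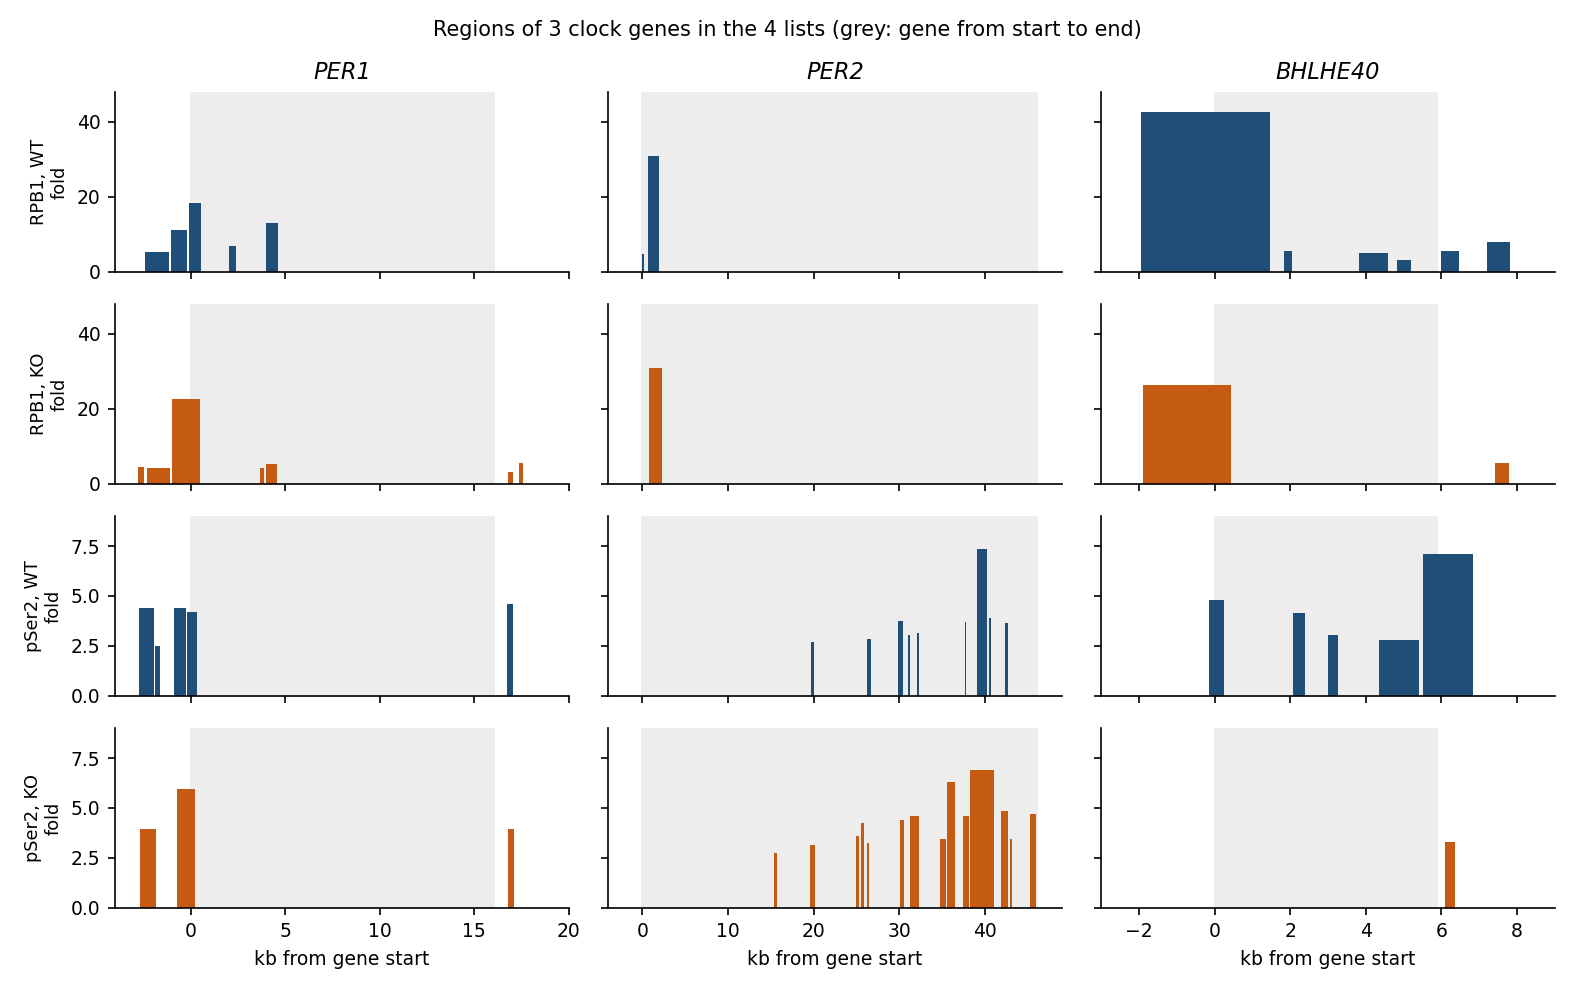
Regions of PER1, PER2 and BHLHE40 (columns) in the 4 lists (rows) as bars from region start to end in kb from the gene start, with the fold enrichment over input as height and the gene in grey; the BHLHE40 region about 47 kb away is outside the axis. RPB1 stays at the PER2 start in both cell types while pSer2 bars cover 22.6% of the gene in KO and 8.16% in WT, and in BHLHE40 the RPB1 and pSer2 bars inside the gene beyond the promoter are in the WT rows.

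At CLOCK pSer2 lay near the gene end. The authors' assignment gave 10 regions in each list, the strongest with a fold of 5.03 in WT (rank 17640) and 4.00 in KO (rank 34145), a scaled log2 ratio of −0.24. Regions over the last exon were assigned to TMEM165, which overlaps 25495 bp of CLOCK on the other strand, and with them the strongest was 8.29 in WT and 6.96 in KO. These regions covered 11415 bp of the gene in WT, and 10307 bp were covered in KO. Promoter pSer2 regions with folds of 3.73 and 3.83 were listed in KO only.

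The pSer2 regions assigned to PER1 and PER3 lay mainly upstream of the gene start. At PER1 the strongest region had a fold of 4.60 in WT, just past the gene end, and 5.96 in KO, at the upstream start (chr17:8156303-8157240, rank 8604), a scaled log2 ratio of 0.47. The region past the end was also listed in KO, with 3.95. At PER3 all regions lay upstream of the gene start, in or near the end of VAMP3, and 0 bp lay inside PER3 in either list. The strongest fold was 5.00 in WT (chr1:7781354-7783604) and 5.94 in KO (chr1:7781442-7782515). VAMP3 is on the same strand and ends at 7781432, and a weaker WT region with a fold of 2.78 lay inside VAMP3. The polymerase of VAMP3 and of PER3 cannot be told apart there. These pSer2 values still enter the counts, the median and the search for similar genes under the name of PER3.

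At NR1D1 the strongest pSer2 region by the authors' assignment had a fold of 4.14 in WT and 4.28 in KO. In all 1569 bp of the gene were covered in WT and 1570 bp in KO, but not at all the same places, as a WT region with a fold of 3.81 and a KO region with 3.45 had no partner. The end of the gene overlaps the end of THRA by 1075 bp on the other strand, and a region assigned to THRA there had 8.89 in WT and 9.71 in KO. NR1D2 had pSer2 only past its end, 5.59 in WT and 5.77 in KO. DBP had the highest pSer2 folds among the regions assigned to a clock gene, 9.02 in WT (chr19:48628481-48632128, rank 2773) and 7.10 in KO (chr19:48629669-48632116, rank 4682) over its end, a scaled log2 ratio of −0.25. Both regions reach past the gene end into SPHK2 on the other strand. The WT summit at 48630452 lay in the stretch shared with SPHK2, and the KO summit at 48631690 did not. That ratio thus sets summits at different places side by side. In the shared stretch the polymerase of DBP and of SPHK2 cannot be told apart. The region at the internal RPB1 summit had 4.80 in WT and 6.32 in KO.

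**Figure D4:**
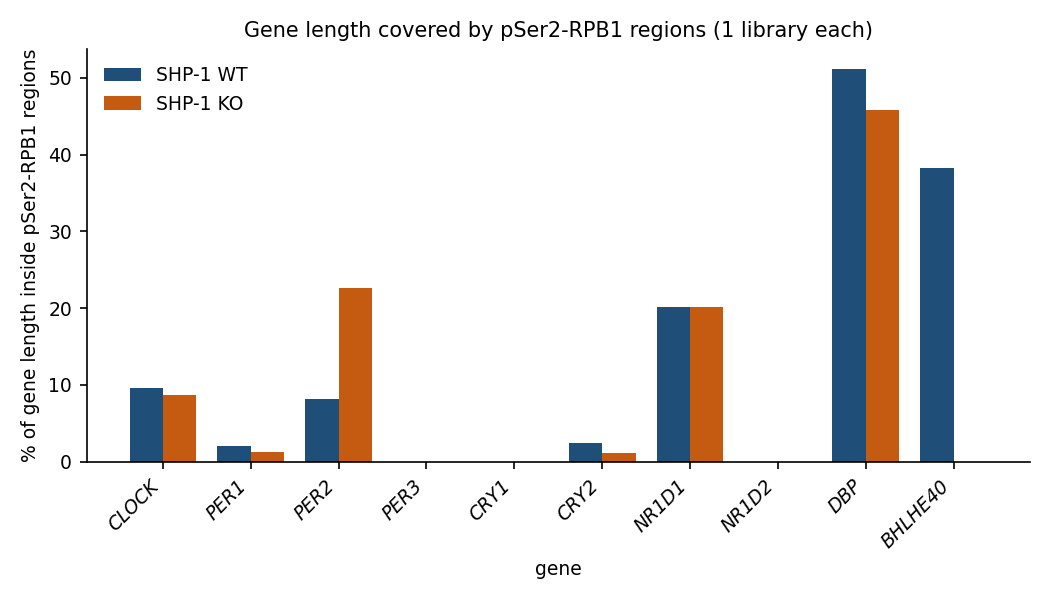
Share of each clock gene's length that lies inside pSer2 regions (vertical axis, in percent), with 1 SHP-1 WT library and 1 SHP-1 KO library per gene as bars. DBP is the most covered in both (51.2% and 45.9%), PER2 is higher in KO (8.16% and 22.6%), BHLHE40 is covered in WT only (38.3%), and PER3, CRY1 and NR1D2 have none inside the gene.

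Among pSer2 summits inside the clock genes 30 of 36 in WT and 26 of 32 in KO lay in the later 50% of the gene, against 57.8% and 57.6% of the summits inside all genes. For RPB1 it was 3 of 14 in WT and 4 of 16 in KO, against 39.0% and 37.2%. CLOCK and PER2 hold most of the pSer2 summits, so these counts describe those 2 genes above all. Summits were counted by position, so those of regions assigned to TMEM165, HES6 and MAPK8IP1 are among them. Where another gene overlaps on the other strand, as TMEM165 does at the end of CLOCK, the polymerase of both genes cannot be told apart. Of the 38 WT pSer2 regions assigned to the clock genes 23 were overlapped by a KO region, 60.5% (exact 95% interval 43.4 to 76.0), against 52.2% of all WT pSer2 regions. From the KO side 21 of 33 were overlapped, 63.6%, against 69.9% of all KO pSer2 regions. The side taken thus decides whether the clock genes lie above or below the share of all regions.

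Other genes of the clock were taken from a list of 21. For RPB1 17 had a promoter region in both lists, of which 3 were lower in KO and 1 was higher by 1.5 times or more, with a median scaled log2 ratio of 0.06 beside the same background shares. Among those lower, TEF, a PAR bZIP factor like DBP, had a fold of 29.2 in WT and 11.3 in KO (scaled −0.90). TIMELESS, better known for its work at the replication fork, had 36.0 and 14.1 (−0.89), and for pSer2 6.13 and 2.90 (−0.98). The 1 that was higher was the F-box pseudogene FBXL21P, with 10.0 and 21.95 (1.59).

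Other genes of that list did not reach 1.5 times. RORA, a nuclear receptor that activates through ROR elements, had 39.97 in WT and 20.7 in KO (−0.49), the kinase gene CSNK1E had 29.04 and 14.3 (−0.57), the F-box gene FBXW11 had 39.3 and 37.2 (0.38) and TIPIN, the partner of TIMELESS, had 45.5 and 42.7 (0.37). ARNTL, which encodes BMAL1, had 30.2 and 26.9 (0.30). For pSer2 10 of the 21 had a region in both lists, of which only TIMELESS was lower by 1.5 times or more (8.35% of all genes). Of the 15 with a WT region 5 had none in KO (14.7% of all such genes), among them ARNTL2, RORA and USP2.

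The clock genes lie in neighbourhoods of different density. Within 2 Mb of PER3, its own regions left out, there were 245 RPB1 regions in WT and 187 in KO, and 350 pSer2 regions in WT and 221 in KO. The median scaled log2 RPB1 ratio of 32 genes there was −0.11, with 3 lower and 3 higher, near the shares of all genes (9.29% and 10.3%). Around BHLHE40 there were 14 RPB1 regions in WT and 21 in KO, and 69 and 74 pSer2 regions (no fewer in KO for either antibody). Around PER2 the counts were 67 and 43 for RPB1 and 135 and 94 for pSer2, and of 18 neighbouring genes 3 were lower in KO and 0 higher by 1.5 times or more at the strongest pSer2 region (8.35% and 8.44% of all genes).

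The gene with the most similar pattern was sought among 8212 genes with RPB1 promoter and pSer2 regions in both cell types, by the largest difference over the 4 percentiles. It was ST3GAL2 for PER1 (largest difference 0.694 percentile points), LOC102606465 for PER2 (3.41), SENP1 for PER3 (1.46), USP46-AS1 for CLOCK (1.45), NAA20 for NR1D1 (2.85) and MRPS25 for DBP (1.02). By the authors' assignment BHLHE40 lacks 1 of the 4 values, and CRY1, CRY2 and NR1D2 lack 2 each.

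Genes of hepatocytes were occupied in these libraries. Of 8 liver genes (ALB, AFP, APOA1, APOB, TTR, HNF4A, FGB and SERPINA1) 8 had a region in the WT RPB1, WT pSer2 and KO pSer2 lists and 7 in the KO RPB1 list, where APOA1 had none. Among genes of other cell types PTPRC, CD3E, COL1A2, MYOD1 and KRT5 had none in any list, while PECAM1 and GFAP had regions in all 4 lists. PTPN6, the targeted gene, kept a promoter region with an RPB1 fold of 24.0 in WT and 17.2 in KO and a pSer2 fold of 4.03 and 5.24. This does not check the knockout, as occupancy of the gene is not its protein. The lists differ in length, with 46045 and 41605 RPB1 regions and 102674 and 81012 pSer2 regions in WT and KO, and the part of this difference in the ratios above was not tested.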

How the data were processed

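The 4 lists of narrow peaks were used. Per the paper's methods and the submitters' processing notes, the authors trimmed reads with Trimmomatic, aligned them to GRCh38/hg38 with BWA and called narrow peaks with MACS2, taking the matching input as background. Versions are not given in the sources used here. The deposited signal value is a fold enrichment over input, a ratio, and the deposited q-value is a −log10 q-value. A further deposited table of RPB1 differential regions from csaw holds the authors' own p-values and directions and was not used.

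All 271336 regions lie inside the hg38 chromosomes of the reference. Gene symbols and the class promoter were taken from the authors' annotation. Values were not transformed except for log2 ratios. A gene was called lower or higher past 1.5 times after scaling. Overlap required 1 bp. The functions were tested on simulated data. Python 3.11.15, pandas 2.3.3, NumPy 2.4.6, SciPy 1.17.1 and matplotlib 3.10.9 were used. The 10 genes, the 21 further clock genes and the marker lists were chosen with earlier results of these data known. Named further genes come from the 8 with the largest scaled ratio in either antibody, and ARNTL, ARNTL2 and USP2 were added after their values were seen. Some genes of these lists enter the counts but are not reported here. Alternative settings were a −log10 q-value of at least 5, assignment by position, a reciprocal overlap of 50%, no scaling, fold times length, a fold of 2 and leaving out PER3.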

Additional observations from a re-analysis of the deposited data

How the results depend on the processing

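The share of WT pSer2 regions of the clock genes overlapped in KO fell to 31.6% when a reciprocal overlap of 50% was required. Under the same rule it was 26.0% for all WT pSer2 regions. Without scaling the number of clock genes lower in KO at the RPB1 promoter was 1 (CRY2) and their median log2 ratio was −0.29, and without PER3 the scaled median was 0.30. The count of clock genes lower at the strongest pSer2 region was 0 when a −log10 q-value of 5 was the minimum and 0 with assignment by position, since both leave BHLHE40 without a KO region. The count of clock genes higher in KO, recomputed after the values were seen, was 0 without scaling, 3 with fold times length and 0 at a fold of 2 for the RPB1 promoter, and 0 by position and 0 at a fold of 2 for the strongest pSer2 region. The count with a shorter pSer2 length, an analysis added after the values were seen, was also 0 at a −log10 q-value of 5. Shares of all genes are not given under these settings, so the counts of genes here have no background beside them. The other settings gave values within the limits used (the exact interval for shares, 1.5 times for counts and 0.1 for medians on the log2 scale). No paired analysis was possible because there is 1 library per condition and no result comes from a test. Depth is unknown, so weak regions listed in 1 cell type only cannot be told apart from regions near the calling threshold.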
